A study of Mus musculus with 4 samples.

Results

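Immediate early genes were followed in single islet cells as a set of 10, taken by gene symbol from the 32227 genes of the count matrices. They are Fos, Fosb, Jun, Junb and Jund, whose products pair as the transcription factor AP-1, Egr1, a zinc finger transcription factor, Nr4a1, an orphan nuclear receptor, Klf6, a Krüppel-like factor, Ier2, a small nuclear protein, and Btg2, an antiproliferative factor. The set is defined by symbol and not by a limit on any measured value, although it was drawn up with earlier results of these data known. All 10 had UMIs (unique molecular identifiers, which mark captured transcripts) in β, α and non-endocrine cells of each library, and all 10 passed the filter on low counts.

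Immediate early genes are transcribed within minutes of a stimulus without new protein synthesis, since their promoters are bound in advance by factors such as SRF with its Elk partners and CREB. In β cells, glucose, membrane depolarization and calcium entry are known inducers. Enzymatic dissociation of a tissue is also known to induce them.

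Islets came from mice homozygous for a short CRISPR-Cas9 insertion in Myt3 (listed as St18), placed to break an upstream open reading frame, or for the wild-type allele. The labels give adult animals on a normal diet and PIPseq libraries, whereas the methods of the study give a high-fat diet and inDrop-Seq, with islets of males and females pooled, and this was not settled by the files. Counts of mutant 1, mutant 2 and control 2 were read, and the counts of control 1 were not analysed here. Genotype is taken from the labels and cannot be read from counts per gene. Because control 2 also differs from the mutant libraries in its batch entry and in its depth, these and genotype cannot be told apart.

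Values are given in the order mutant 1, mutant 2 and control 2 throughout. The matrices held 3023, 2045 and 2308 barcodes with totals of 8448466, 9013499 and 36985253 UMIs, and 0 barcodes were shared between libraries. Cells with at least 20% insulin (Ins1 and Ins2) UMIs and under 5% of each other hormone were taken as β cells, and they numbered 2165, 1512 and 2003. Cells with at least 5% glucagon or somatostatin UMIs were taken as α cells (304, 222 and 36) and δ cells (26, 36 and 32). Endothelial, stellate or fibroblast, macrophage and duct cells, taken by their markers, were summed as non-endocrine cells (56, 52 and 67). Markers outside these limits were compared between the types. The glucose transporter Slc2a2 stood at 171, 178 and 58.6 CPM (UMIs per 1000000) in β cells and at 23.8, 33.7 and 4.12 in α cells, Ttr at 8767, 11043 and 10771 in α cells and 622, 700 and 1955 in β cells, and Hhex, a δ-cell factor, at 108, 188 and 117 in δ cells. In δ cells the summed α-cell markers stood at 4140, 3565 and 3708 CPM, above the summed δ-cell markers (2273, 1730 and 2041), with 2 or 3 of the 6 α-cell markers detected. A β cell held 2883, 4606 and 16249 UMIs at the median. Insulin made up a median of 39.9%, 42.0% and 55.1% of the UMIs of β cells and 4.28%, 4.12% and 4.63% of those of non-endocrine cells, a level of hormone RNA found in cells that do not make it. No cell type of the islet lacks immediate early genes, so no background share could be set for them in the same way.

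Of the 10 genes, 8 have a promoter window in the RefSeq table (GRCm38.p6, 250 bases before to 50 after the start), and Egr1 and Ier2 are without one. TGACG, the core of the CREB site, was found on either strand in the windows of Fos, Fosb, Junb, Btg2 and Nr4a1, 5 of 8, against 20.8% of all 32851 windows. The full palindrome TGACGTCA, which contains TGACG, was found in Btg2 alone (1.79% of all windows), and GCGGGGGCG, an Egr1 motif, in Fosb and Nr4a1 (2.91%). The CArG box bound by SRF (1.63% of windows) and the AP-1 motif TGANTCA (7.81%) were in none of the 8, which says only that these letters are not in these windows. The stretches that hold TGACG are shown for the genes whose levels are compared here (the one nearest the start, of 2 in Fos and 4 in Nr4a1), with the motif in capitals and each read along the strand of its gene, on which CGTCA is TGACG of the opposite strand. The stretches of Fosb and Nr4a1 lie inside the outer ends of their genes as the RefSeq gene table has them.

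Fos (chr12:85473811-85473840, plus strand): cagttccgcccagTGACGtaggaagtccat
Fosb (chr7:19310089-19310118, minus strand): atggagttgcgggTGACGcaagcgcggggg
Junb (chr8:84978838-84978867, minus strand): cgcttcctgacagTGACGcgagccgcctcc
Btg2 (chr1:134079303-134079332, minus strand): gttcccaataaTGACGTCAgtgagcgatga
Nr4a1 (chr15:101266793-101266822, plus strand): gcccctctccatgCGTCAcggagcgcttaa

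First, the levels were compared between cell types within libraries. UMIs were summed per library and cell type, giving 12 sums, and scaled to CPM by TMM, which aligns the sums on the bulk of genes. Levels carry exact Poisson intervals, which cover counting error only. A gene was called at an adjusted p under 0.05 by edgeR's quasi-likelihood test with library as a block and Benjamini-Hochberg adjustment over 7223 genes. In α cells 7 of the 10 genes were higher than in β cells and 0 were lower, where 13.4% of all genes tested were called higher, 13.6% lower and 26.9% in either direction. In non-endocrine cells 7 were higher and 0 lower, where 26.2% of all genes were called higher, 26.9% lower and 53.1% in either direction. In δ cells 1 was higher and 0 lower, with 5.68% of all genes called higher, 7.42% lower and 13.1% in either direction. The median log2 ratio of the 10 genes was 0.67 in α cells, 0.86 in non-endocrine cells and 0.12 in δ cells, with -0.02, -0.08 and -0.14 over all genes tested.

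Jun, the AP-1 partner that can also act as a homodimer, was the gene called in all of these comparisons (ENSMUSG00000052684, at chr4:95049036-95052222 in GRCm38.p6). It stood at 259 (95% interval 245 to 274), 310 (295 to 326) and 456 (447 to 466) CPM in β cells of the libraries in turn. In α cells it stood at 503, 565 and 911, in δ cells at 451, 475 and 922, and in non-endocrine cells at 422, 781 and 947. Within every library the β-cell level was the lowest. The log2 ratio to β cells was 0.94 ± 0.19 (SE) in α cells (edgeR adjusted p = 0.000385), 0.82 ± 0.21 in δ cells (edgeR adjusted p = 0.00704) and 1.05 ± 0.20 in non-endocrine cells (edgeR adjusted p = 4.72e-05), each over 3 libraries.

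Ier2 was higher in both α and non-endocrine cells than in β cells. Its levels were 569, 516 and 228 CPM in β cells, 848, 856 and 906 in α cells and 1385, 1410 and 1156 in non-endocrine cells. The α-cell and non-endocrine levels lay close together across libraries, whereas the β-cell level of control 2 was below those of both mutants. The log2 ratio to β cells was 1.01 ± 0.27 in α cells (edgeR adjusted p = 0.00622) and 1.60 ± 0.28 in non-endocrine cells (edgeR adjusted p = 1.93e-05). Within α cells the ratio was 0.58, 0.73 and 1.99 in the same order of libraries.

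The other AP-1 genes fell into different patterns. Fosb, at 478, 598 and 438 CPM in β cells and 742, 902 and 1341 in α cells, was higher in α cells (log2 ratio 0.93 ± 0.23, edgeR adjusted p = 0.00289) and stood close to its β-cell level in non-endocrine cells (0.03 ± 0.24). Junb was higher in non-endocrine cells (1.55 ± 0.23, edgeR adjusted p = 1.31e-06), with 701, 834 and 1100 CPM against 272, 305 and 293 in β cells, and to a lesser extent in α cells (0.62 ± 0.22, edgeR adjusted p = 0.0339). Jund, the AP-1 gene usually held at a steady level, stood at 778, 815 and 799 CPM in β cells and 1225, 1330 and 1249 in non-endocrine cells. It was higher in non-endocrine cells (0.67 ± 0.19, edgeR adjusted p = 0.00399) and had a ratio of 0.44 ± 0.19 in α cells. Fos, at 2900, 2883 and 1174 CPM in β cells, had ratios of 0.41 ± 0.26 in α cells, -0.22 ± 0.27 in δ cells and 0.03 ± 0.26 in non-endocrine cells and was not called in any comparison.

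Among the genes outside AP-1, Egr1 was higher in α cells (0.72 ± 0.25, edgeR adjusted p = 0.0327), with 3277, 3113 and 2856 CPM against 2378, 2318 and 1098 in β cells. Its ratio in non-endocrine cells was 0.51 ± 0.25 (edgeR adjusted p = 0.0909). Btg2, at 277, 333 and 424 CPM in β cells, 385, 488 and 711 in α cells and 346, 496 and 635 in non-endocrine cells, was higher in α cells (0.59 ± 0.18, edgeR adjusted p = 0.0176) and in non-endocrine cells (0.49 ± 0.20, edgeR adjusted p = 0.0367). The non-endocrine call of Btg2 was kept in only 6 of 13 alternative settings. Klf6 (ENSMUSG00000000078, at chr13:5861489-5870393) was higher in α cells (0.90 ± 0.24, edgeR adjusted p = 0.00547), with 93.6, 94.3 and 255 CPM against 40.4, 49.6 and 166 in β cells, and in non-endocrine cells (1.60 ± 0.26, edgeR adjusted p = 5.86e-06), with 101, 258 and 368.

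Nr4a1 was higher in non-endocrine cells (1.81 ± 0.30, edgeR adjusted p = 1.12e-05). Its levels there were 50.7, 245 and 360 CPM, against 62.1, 80.3 and 49.7 in β cells, so that mutant 1, with 6 UMIs, lay below its β cells and the other libraries lay above theirs. Endothelial cells held 6 of 6, 28 of 37 and 190 of 200 of these UMIs. In α cells Nr4a1 stood at 60.7, 100 and 149 CPM (ratio 0.57 ± 0.29, edgeR adjusted p = 0.160).

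**Figure D1:**
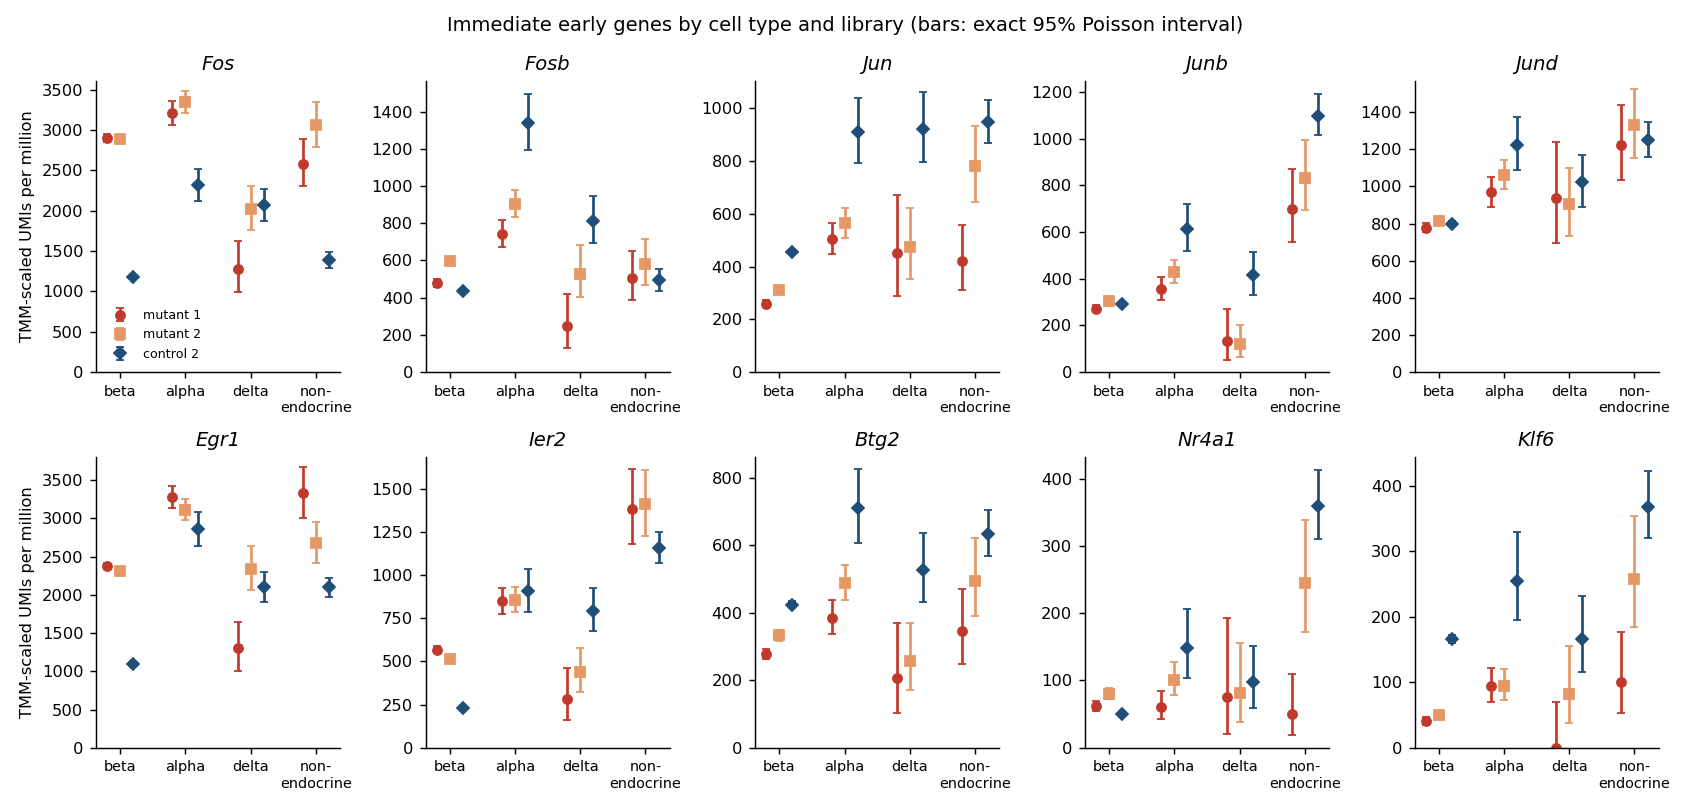
Level of each gene (y axis, TMM-scaled CPM, from 0) in β, α, δ and non-endocrine cells (x axis) of mutant 1, mutant 2 and control 2, with points for library sums and bars for exact 95% Poisson intervals. Jun is lowest in β cells of every library, and Fos, Egr1 and Ier2 are lower in β cells of control 2 (1174, 1098 and 228) than of the mutants.

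The δ-cell comparison depended on control 2. In δ cells of the mutants Junb had 7 and 13 UMIs, or 132 and 119 CPM against 272 and 305 in β cells, and in control 2 it had 85 UMIs, or 415 against 293. Fos in δ cells stood at 1279, 2017 and 2068 CPM. Both genes were thus below the β-cell level in the mutant libraries and above it in control 2. Without control 2, Junb (-1.28, edgeR adjusted p = 0.000437) and Fos (-0.79, edgeR adjusted p = 8.19e-06) were called lower in δ than in β cells, and Jun stayed higher. Without mutant 1, and likewise without mutant 2, 0 of the 10 genes were called in δ cells. Iapp stood at 38772, 33120 and 18524 CPM of all UMIs in these δ cells. This was below its level in β cells (85411, 75212 and 42121) and above that in non-endocrine cells (16329, 14275 and 7446). The median insulin share was close in the last 2 types, from 4.73% to 4.84% in δ cells and from 4.12% to 4.63% in non-endocrine cells. The source of the Iapp in δ cells and its part in the values were not tested.

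The α-cell calls also moved with the libraries. Without mutant 1 or without mutant 2, 3 genes were called higher in α cells (Fosb, Jun and Ier2 each time), and 8 without control 2. In non-endocrine cells Jun, Junb, Ier2, Nr4a1 and Klf6 were called higher with any 1 of the libraries left out. When the library block was left out, 0 of the 10 genes were called in α cells, 0 in δ cells and 5 in non-endocrine cells. With CPM of all UMIs in place of TMM, the median of all genes moved to 0.60, 0.92 and 0.96 in α, δ and non-endocrine cells. Of the 10 genes 10, 9 and 10 were then called higher, as were 2753, 2731 and 3958 of all 7223 genes tested. This scale counts insulin in the total, so that genes other than hormones read lower in β cells.

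Within the non-endocrine cells, levels were read as CPM of all UMIs. In endothelial cells Nr4a1 stood at 91.8, 325 and 599 and in macrophages at 0 UMIs, 305 and 95.2. Klf6 stood at 378, 534 and 1180 in macrophages and at 76.5, 244 and 328 in endothelial cells. Egr1 stood at 5293, 6104 and 3388 in macrophages and at 2753, 2311 and 1817 in endothelial cells, higher in macrophages in each library. These sums rest on 14, 14 and 12 macrophages and 37, 32 and 36 endothelial cells, and no test was made. With endothelial cells alone in place of the sum, 6 genes were called higher than in β cells (Jun, Junb, Jund, Ier2, Nr4a1 and Klf6). Of all 6045 genes tested in that setting, 1534 were called higher and 1703 lower.

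The second comparison was between the libraries labelled mutant and control 2, within a cell type. With 1 control library there is no test, and a gene is counted where both mutant libraries passed 0.5 on the log2 scale in the same direction. Sums were scaled by TMM over the libraries of a cell type, so the levels below are not on the scale of those above. In β cells Fos, Egr1 and Ier2 were above control 2 in both mutant libraries and Jun, Btg2 and Klf6 below it, 3 and 3 of 10, where 14.3% and 32.5% of 4739 genes passed in these directions. The downward share is near that of all genes, and 1 of the 10 genes was below control 2 in CPM of all UMIs, in cells of 3000 to 6000 UMIs, in thinned cells and outside hormone genes. Of all genes, 12.1%, 16.5%, 20.9% and 22.4% passed downward in these settings.

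Fos stood at 1757, 1730 and 799 CPM in β cells, a log2 ratio of 1.14 and 1.11. Egr1 stood at 1441, 1391 and 747 (0.95 and 0.90) and Ier2 at 345, 310 and 155 (1.15 in mutant 1, and lower by 0.15 in mutant 2). The mutant libraries thus lay closer to each other than to control 2 for all 3. Klf6 stood at 24.5, 29.8 and 113 (-2.20 and -1.92), the lowest ratios of the set. Jun stood at 157, 186 and 311 (-0.98 and -0.74) and Btg2 at 168, 200 and 289 (-0.78 and -0.53). Fosb (-0.04 and 0.27), Junb (-0.28 and -0.12), Jund (-0.21 and -0.15) and Nr4a1 (0.15 and 0.51) were within 0.5 in at least 1 mutant library.

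The median ratio of all genes in β cells was -0.19 and -0.22 in this scaling and 0.42 and 0.41 in CPM of all UMIs. Over 10 settings of scaling, depth and limits, Fos lay between 1.11 and 1.72, Egr1 between 0.90 and 1.53, Ier2 between 0.99 and 1.74 and Klf6 between -2.23 and -1.32, and each kept its side of 0 in both mutant libraries. Jun (-0.99 to -0.14) and Nr4a1 (0.12 to 1.11) kept their side of 0 too. Junb, Jund, Fosb and Btg2 were on either side of 0 depending on the setting. The β cells of 3000 to 6000 UMIs numbered 823, 622 and 270, with medians of 4003, 4499 and 4186 UMIs. This range lies far below the median of all β cells in control 2 (16249 UMIs) and near those in the mutants (2883 and 4606). Within it Fos was at 1.52 in mutant 2 with a gap of 0.02 to mutant 1, and Egr1 at 1.32 and 1.30. Ier2 was at 1.67 and 1.58 and Klf6 at -1.69 and -1.40, while Jun (-0.48 and -0.37) and Btg2 (-0.22 and -0.11) did not pass 0.5.

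The nuclear RNA Malat1 moved with the libraries as well, at 408, 557 and 1428 CPM of all UMIs in β cells and 621, 991 and 3165 in α cells. The summed markers of pancreatic acinar cells, all 9 of which were detected, were at 58.6, 31.9 and 73.0 CPM in β cells. The part of either in the ratios was not tested.

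**Figure D2:**
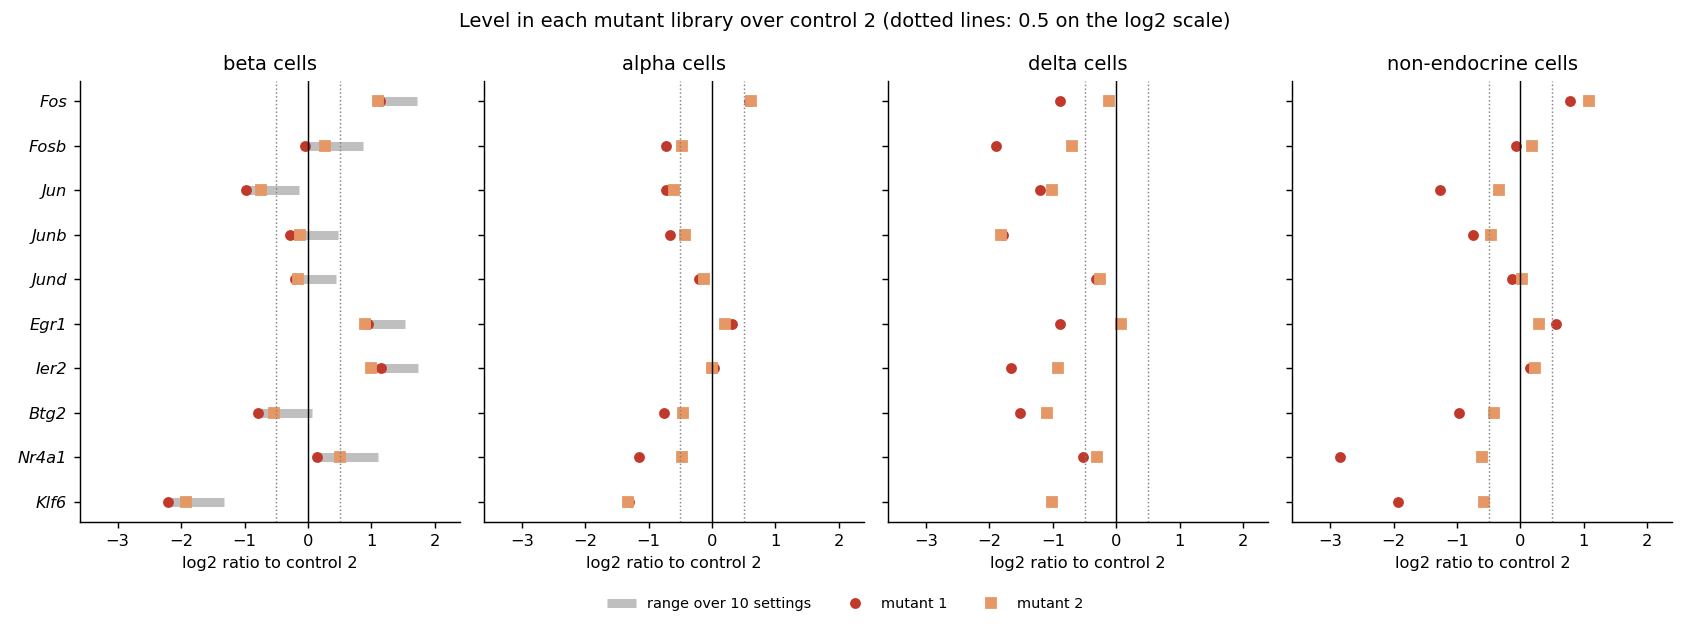
Log2 ratio of each mutant library to control 2 (x axis) for each gene (y axis) in 4 cell types, with dotted lines at 0.5 on either side of 0 and grey bars for the range over 10 settings in β cells. Fos, Egr1 and Ier2 lie right of 0 and Jun and Klf6 left of 0 in β cells, and Klf6 of mutant 1 δ cells, with 0 UMIs, is not drawn.

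In α cells the same limit was passed by Fos upward (0.59 and 0.61) and by Jun (-0.73 and -0.60) and Klf6 (-1.31 and -1.33) downward, where 23.1% and 13.8% of all genes passed. Egr1 (0.32 and 0.21) and Ier2 (0.03 and 0.00), which were above control 2 in β cells, did not pass it in α cells. In non-endocrine cells Fos passed upward (0.79 and 1.08) and Nr4a1 (-2.84 and -0.61) and Klf6 (-1.93 and -0.57) downward, where 10.6% and 19.5% of all genes passed. Of these, Nr4a1 differed most between the mutant libraries, which rest on 6 and 37 UMIs. In δ cells 6 genes passed downward and 0 upward, where 19.1% and 10.8% of all genes passed. They were Fosb, Jun, Junb, Ier2, Btg2 and Klf6, the last with 0 UMIs in mutant 1. The exact interval of that count reaches up to 99.8 CPM of all UMIs, and a count of 3 would be 81.2. On this scale Klf6 stood at 106 in δ cells of mutant 2 and 198 in those of control 2. Klf6 was thus past the limit below control 2 in all 4 cell types. In thinned δ cells 3 genes passed downward (Fosb, Ier2 and Nr4a1), where 18.6% of all genes did. There Jun (-0.26 and -0.44), Junb (-1.12 and -0.28) and Btg2 (-0.46 and -0.66) fell short. In mutant 2 Klf6 fell short of the limit in non-endocrine cells in CPM of all UMIs (-0.48) or outside hormone genes (-0.47) and in thinned δ cells (-0.32). Fos in α cells fell short in CPM of all UMIs (0.49 and 0.57) and outside hormone genes (0.40 and 0.49), and Jun in thinned α cells lay at -0.16 and 0.09.

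Ratios of UMIs between members of the set do not depend on the scaling of a library. In β cells there were 11.2 (95% interval 10.6 to 11.8), 9.29 (8.83 to 9.79) and 2.57 UMIs of Fos per UMI of Jun. In α cells this ratio was 6.38, 5.92 and 2.54, in δ cells 2.83, 4.25 and 2.24, and in non-endocrine cells 6.12, 3.92 and 1.47. The ratio was lowest in control 2 in each cell type, although in δ cells the interval of mutant 1 (1.76 to 4.72) included the value of control 2. Fos to Fosb in β cells was 6.07, 4.82 and 2.68, and Fos to Klf6 was 71.8, 58.1 and 7.08.

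In β cells other pairs were closer across libraries. Egr1 to Fos was 0.820, 0.804 and 0.935, and Junb to Jund was 0.349, 0.375 and 0.367. In non-endocrine cells Junb to Jund was 0.572, 0.627 and 0.881, above β cells in each library. In δ cells it was 0.140, 0.131 and 0.405.

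**Figure D3:**
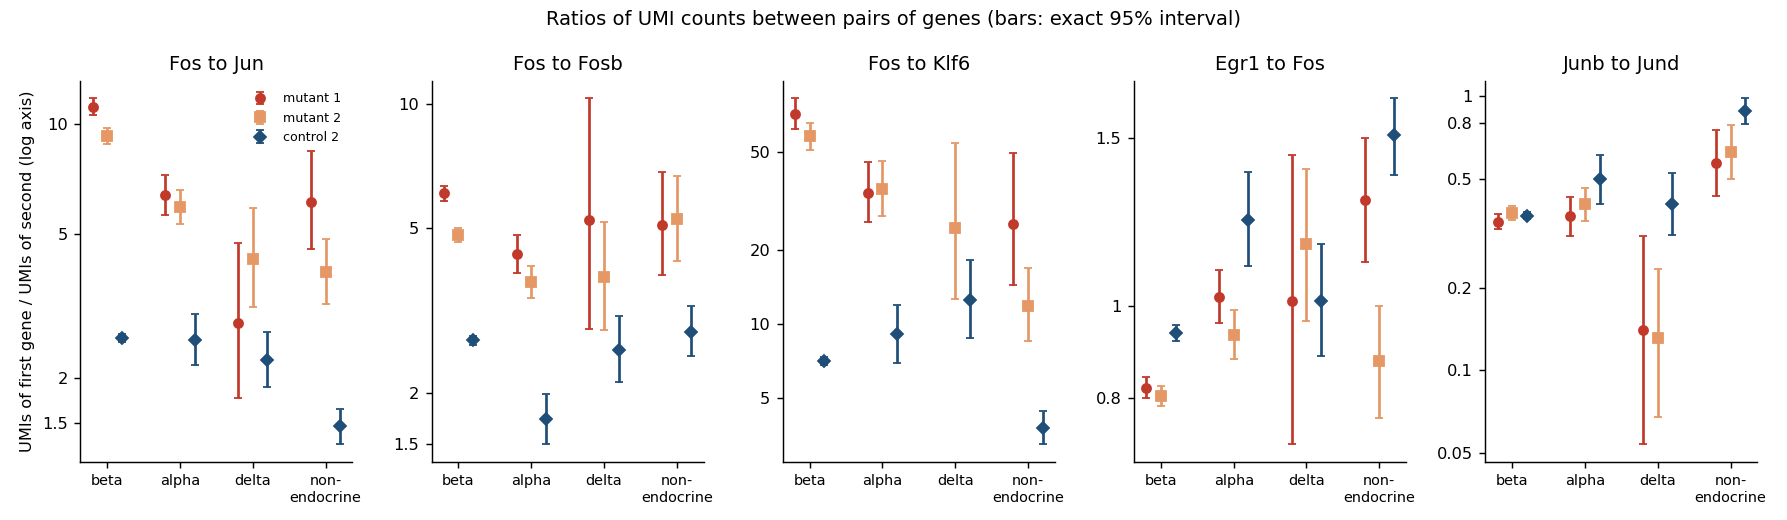
UMIs of the first gene over UMIs of the second (y axis, log scale) for 5 pairs by cell type (x axis) and library, with exact 95% intervals. Fos to Jun in β cells is 11.2 and 9.29 in the mutants and 2.57 in control 2, while Junb to Jund in β cells is between 0.349 and 0.375, and Fos to Klf6 has no value for δ cells of mutant 1.

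Summed over the set, the 10 genes made up 0.554%, 0.568% and 0.265% of all UMIs in β cells. In α cells they made up 1.02%, 1.09% and 1.09%, and in non-endocrine cells 1.35%, 1.45% and 1.20%. In δ cells they made up 0.706%, 0.933% and 1.07%. The sum was thus alike between libraries in α cells, lowest in control 2 in β cells and highest in control 2 in δ cells. Insulin takes a larger share of the total in β cells of control 2, and the part of this in the sum was not tested. The division of the sum between genes differed as well, since Fos was 36.2%, 35.1% and 22.9% of it in β cells, Jund 9.70%, 9.93% and 15.6%, and Jun 3.24%, 3.78% and 8.90%.

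To compare single cells at the same depth, each cell was thinned to 1000 UMIs, which left out 265, 116 and 0 β cells with fewer. At this depth Fos was seen in 83.6%, 84.6% and 44.1% of β cells, and Egr1 in 74.6%, 76.6% and 41.9%. Unthinned, Fos was seen in 95.6%, 97.8% and 95.8%, close to the ceiling in each library at its own depth. Ier2 was seen in 31.6%, 28.5% and 12.0% of thinned β cells and Klf6 in 2.68%, 2.65% and 7.69%, with Jun at 16.1%, 18.8% and 22.6% (exact binomial intervals are drawn in the plot of cell shares). With 500 UMIs outside hormone and mitochondrial genes in place of 1000 of all genes, Fos was seen in 84.7%, 83.4% and 51.3% and Klf6 in 2.99%, 2.76% and 9.19%. In α cells Fos was seen in 91.2%, 92.5% and 91.7% and Egr1 in 90.8%, 92.5% and 91.7%, shares near the ceiling in each library.

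**Figure D4:**
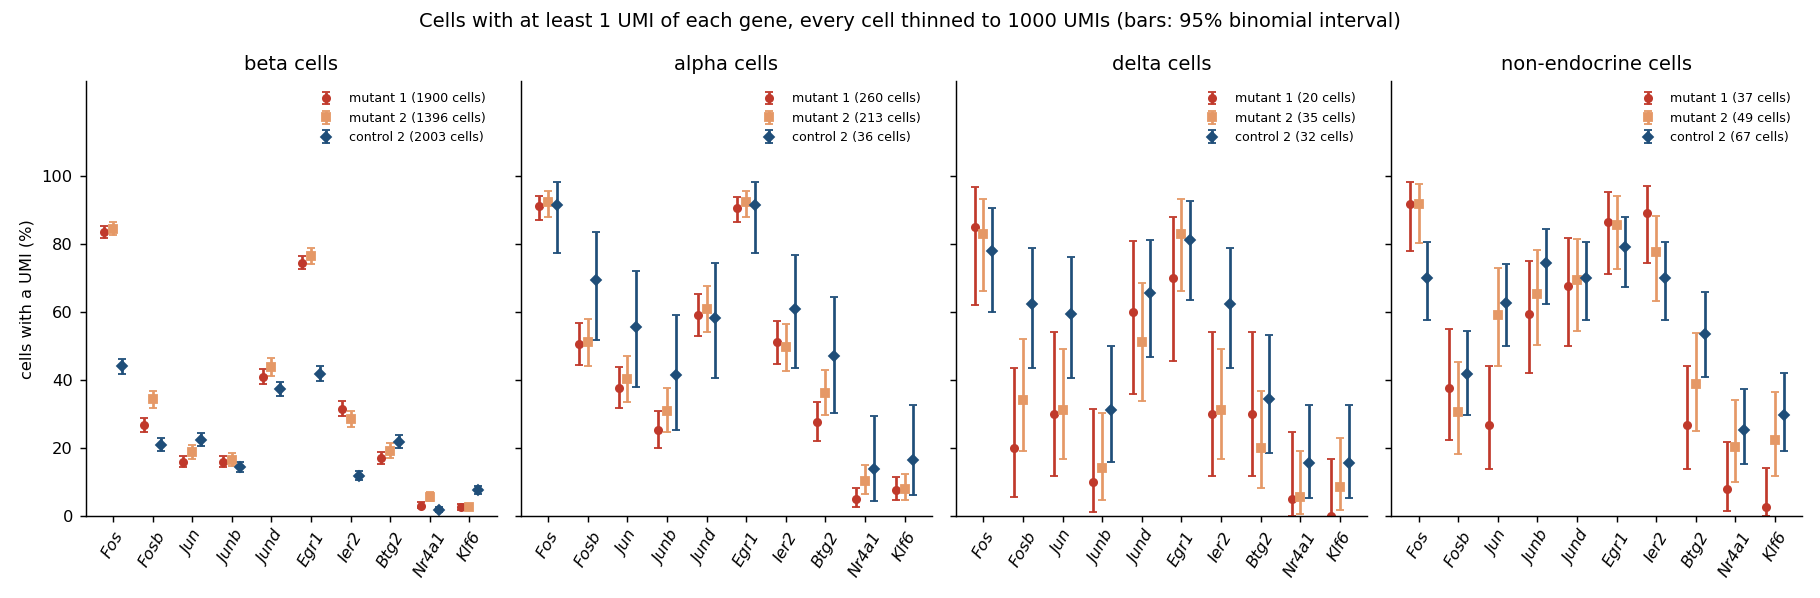
Share of cells with at least 1 UMI (y axis, %) of each gene (x axis) after thinning every cell to 1000 UMIs, by cell type and library, with exact 95% binomial intervals. Fos and Egr1 are seen in 44.1% and 41.9% of β cells of control 2, below the mutants, while α cells of the 3 libraries lie between 90.8% and 92.5%.

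A thinned β cell held a mean of 5.50, 5.86 and 3.01 UMIs of the 10 genes together, with SDs over cells of 3.00, 3.13 and 2.44. The variance was 1.64, 1.68 and 1.98 times the mean, where independent counting would give the mean itself. None of the 10 genes was seen in 1.79%, 1.22% and 10.3% of β cells, and the highest cell had 22, 22 and 21 UMIs. The 10th and 90th percentiles of β cells were 2 and 9 UMIs in mutant 1, 2 and 10 in mutant 2 and 0 and 6 in control 2. Medians were 5, 6 and 3 UMIs in β cells, 10, 10 and 10 in α cells, 6, 6 and 9 in δ cells and 11, 14 and 11 in non-endocrine cells. In 500 UMIs outside hormone and mitochondrial genes, medians were 5, 6 and 3 in β cells and 7, 7 and 7 in α cells. They were 3, 3 and 6 in δ cells and 6, 7 and 6 in non-endocrine cells. The α-cell and non-endocrine medians were thus closer to those of β cells, whereas the δ-cell medians lay below β cells in both mutant libraries. Means on that scale were 5.67, 6.04 and 3.55 in β cells and 7.19, 7.54 and 8.22 in α cells.

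Correlations between the genes of the set across β cells were low. Over the 45 pairs of genes, cells with both genes were a median of 1.05, 1.02 and 1.14 times as many as the product of the 2 shares gives. Medians were 0.995 to 1.02 for pairs among other genes, whose shares of β cells lay within the range of the set. Of these pairs among other genes, 43.5%, 47.3% and 39.6% lay above the median of the 45 pairs. This ratio cannot exceed 1 over the larger share of a pair, which keeps pairs with a widely seen gene such as Fos near 1. The other genes were not matched to the set in share pair by pair, and Fos and Egr1 were seen less in control 2. The ratios thus do not settle how the set stands against other genes or between libraries. The median Spearman correlation was 0.03, 0.03 and 0.04, over 1900, 1396 and 2003 cells that share a library and a depth. The pair with the highest value was Fos with Egr1, at 0.14, 0.15 and 0.16, and at 0.22, 0.24 and 0.22 when cells were thinned to 2000 UMIs instead. In counts this sparse such correlations are descriptions and are no finding. In non-endocrine cells, which mix cell types, Fos with Egr1 was at 0.52, 0.49 and 0.32 over 37, 49 and 67 cells. The median correlation of the 45 pairs was 0.04, 0.07 and 0.11 in α cells. In δ cells it was 0.25 in mutant 2 and 0.15 in control 2, over 35 and 32 cells. Counted outside hormone and mitochondrial genes, the δ-cell medians were 0.13 and 0.10.

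**Figure D5:**
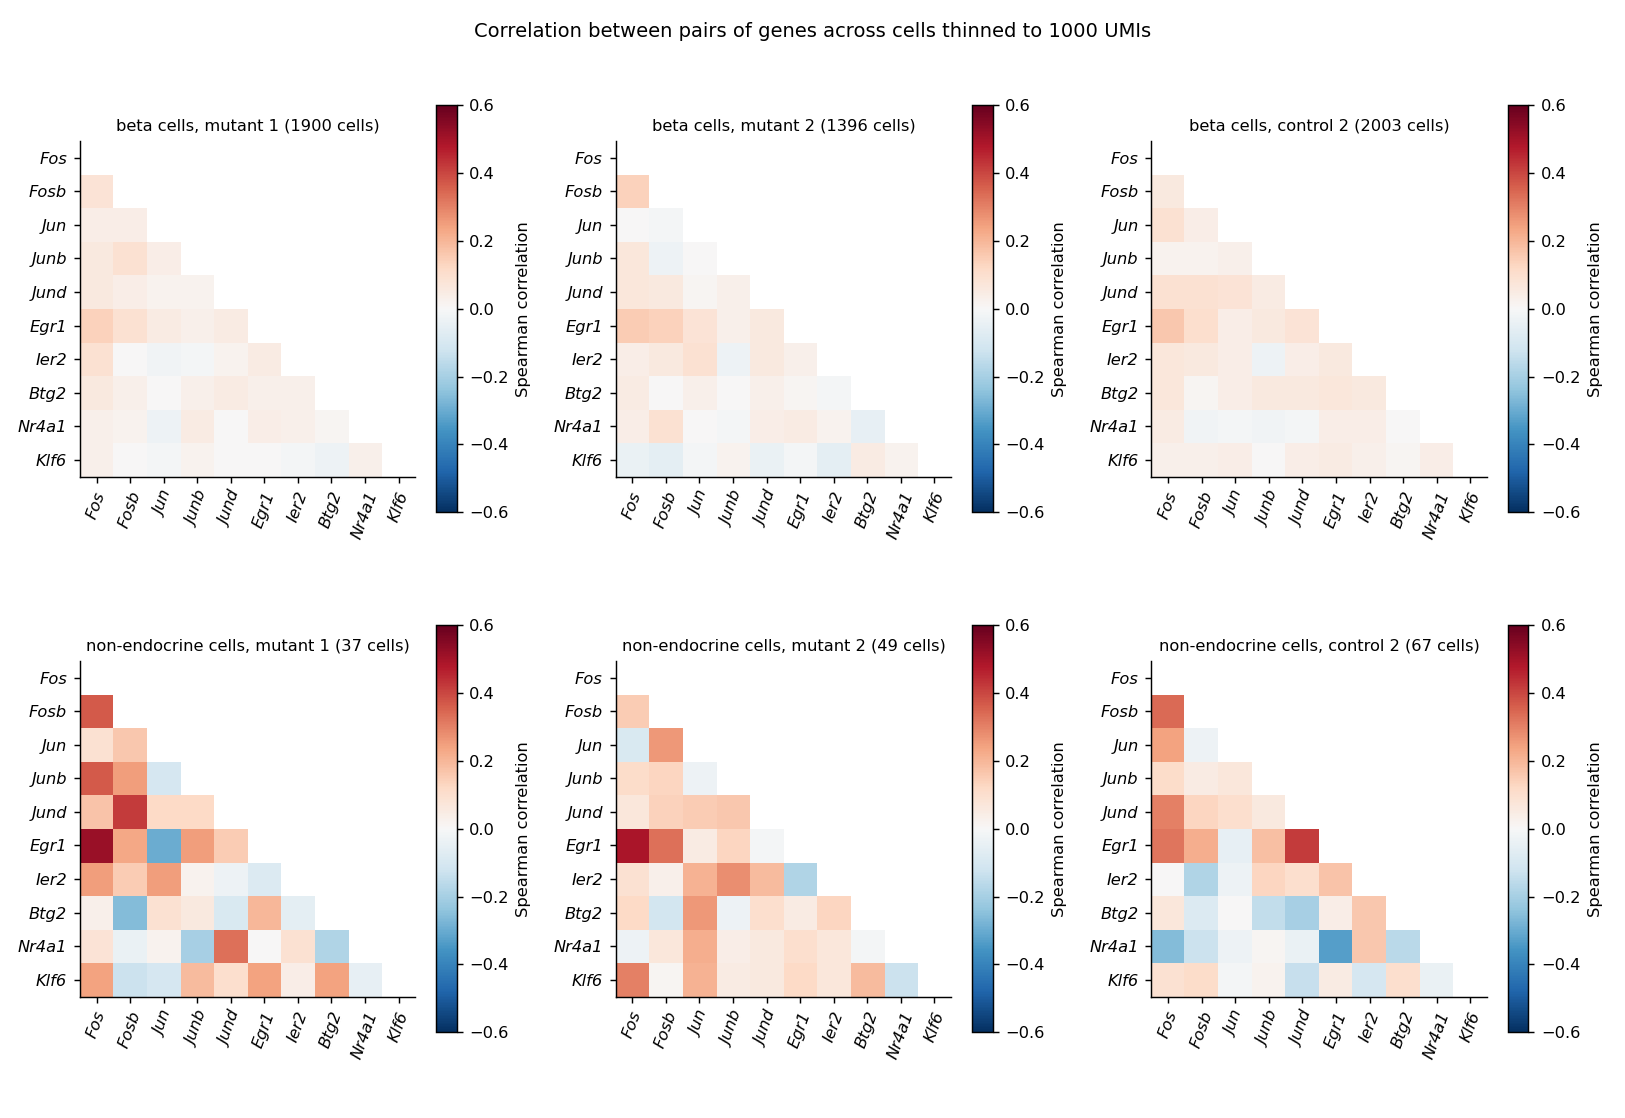
Spearman correlation (colour, from -0.6 to 0.6) between each pair of the 10 genes across β cells (top) and non-endocrine cells (bottom) thinned to 1000 UMIs, with a panel for each library. Values in β cells stay between -0.06 and 0.16, and Fos with Egr1 is the highest pair in β cells of each library.

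Of 1916 other genes with at least 50 CPM in β cells, those whose counts followed the sum of the 10 genes most closely across β cells included, by mean rank over the libraries, Dnajb1, Dusp5, Zfp36, Hsph1, Meg3, Pyy, Gcg, Srsf7 and Cplx2. Correlations were low, at 0.10, 0.21 and 0.13 for the chaperone gene Dnajb1 and 0.10, 0.09 and 0.11 for the phosphatase gene Dusp5, with a median of 0.01, 0.01 and 0.03 over all genes ranked. Counted outside hormone and mitochondrial genes, Zfp36, which promotes mRNA decay, ranked above Dnajb1 (0.07, 0.06 and 0.06 for Zfp36 and 0.04, 0.13 and 0.07 for Dnajb1). Of the genes named above, only Zfp36 and Dnajb1 were among the 10 of highest mean rank in that count. Gcg and Pyy, as hormone genes, were not part of it. The sum of the 10 genes had correlations of -0.14, -0.31 and -0.39 with the insulin share of the cell at 1000 UMIs, and of 0.07, -0.02 and -0.11 when counted outside hormone genes.

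Other genes of the early response were read from lists. Of 15 other immediate early transcription factors 10 were tested, and 7 were higher and 0 lower in α cells, 0 higher and 3 lower in δ cells, and 7 higher and 1 lower in non-endocrine cells than in β cells. Over all genes tested, 13.4% were higher in α cells, 7.42% lower in δ cells and 26.2% higher in non-endocrine cells. Atf3, a stress-induced bZIP factor, was higher in α cells (log2 ratio 2.39 ± 0.26, edgeR adjusted p = 6.85e-08) and in non-endocrine cells (2.56 ± 0.28, edgeR adjusted p = 8.35e-09). Klf2, a factor of endothelial cells, was higher in non-endocrine cells (3.71 ± 0.29, edgeR adjusted p = 1.78e-11) and in α cells (1.06 ± 0.29, edgeR adjusted p = 0.00701). Maff, a small Maf factor, was lower in δ cells (-1.39 ± 0.42, edgeR adjusted p = 0.0254), on 2, 3 and 8 UMIs.

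Of 18 effectors and feedback genes 16 were tested, and 6 were higher and 0 lower in α cells, 1 higher and 1 lower in δ cells and 14 higher and 1 lower in non-endocrine cells. Over all genes tested, 13.4% were higher in α cells. The share called in δ cells is near the 13.1% of all genes, and 53.1% of all genes were called in non-endocrine cells. Zfp36 was higher in α cells (1.57 ± 0.23, edgeR adjusted p = 7.93e-06) and non-endocrine cells (2.90 ± 0.24, edgeR adjusted p = 4.73e-11), as was Dusp1, a phosphatase that turns off MAP kinases (0.92 ± 0.22, edgeR adjusted p = 0.00178, and 2.22 ± 0.22, edgeR adjusted p = 1.89e-09). Rhob, a small GTPase, was higher in α cells (0.94 ± 0.22, edgeR adjusted p = 0.00158), and Nfkbia, the inhibitor of NF-κB, in non-endocrine cells (2.21 ± 0.21, edgeR adjusted p = 6.94e-10). Of 17 upstream regulators 12 were tested, with 2 higher and 1 lower in α cells, 1 and 1 in δ cells and 6 and 3 in non-endocrine cells. The α-cell share is near the 26.9% of all genes called there and the δ-cell share near 13.1%, with 53.1% in non-endocrine cells. Map2k2, a MAP kinase kinase, was lower in δ cells (-1.15 ± 0.28, edgeR adjusted p = 0.00454), in α cells (-0.87 ± 0.22, edgeR adjusted p = 0.00332) and in non-endocrine cells (-0.96 ± 0.24, edgeR adjusted p = 0.00123) than in β cells.

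Against control 2, the lists also held genes on both sides in β cells, and those named here were picked after their values were seen. Over all genes in β cells 14.3% passed upward and 32.5% downward, and the regulators' counts of 1 and 2 of 10 do not exceed these shares. Of the transcription factors 6 had a mean of 20 CPM, of which 3 passed 0.5 upward in both mutant libraries and 0 downward: Klf2 (1.61 and 1.56), Maff (0.98 and 0.97) and Npas4, a factor induced by calcium entry (0.70 and 0.86). Of 7 effectors, 3 passed upward, among them Per1, a clock gene (1.02 and 1.12), and Zfp36 (0.67 and 0.66), and 2 downward, Nfkbia (-1.86 and -1.46) and Rhob (-0.62 and -0.65). Of 10 upstream regulators, Map2k2 passed upward (0.97 and 0.88) and the MAP kinase gene Mapk3 was among those that passed downward (-1.83 and -1.33).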

How the data were processed

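Single-cell libraries of mouse islets were analysed. The methods of the study give DropEst for the counts, along with inDrop-Seq, whereas the labels give PIPseq. The files hold raw deposited counts, which are whole numbers. The submitters' notes name GRCm39 and Seurat, and the aligner is not given in the sources used here. Libraries hold 8448466, 9013499 and 36985253 UMIs. Cells with under 500 UMIs, under 100 genes or over 10% mitochondrial UMIs were removed. No doublet caller was run, and cells over the limits of more than 1 hormone were left out as mixed. The 10 genes, the lists and the limits were chosen with earlier results of these data known.

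Counts were summed per library and cell type. Cell types were compared with edgeR 4.0.16 (R 4.3.3), with TMM, filterByExpr, library as a covariate and the quasi-likelihood test, which was first tested on simulated data. Cells are not replicates, and each library pools islets of several mice per the methods of the study. With library as a covariate, p-values measure differences between cell types against how far these vary from library to library. Sums of all cell types were fitted together, so each comparison with β cells rests partly on the scatter of the other types. Named genes are the 10, and of each list those with 50 CPM in β cells and the largest called ratios, at most 5 per comparison. The genes with counts closest to the sum were the 10 of highest mean rank. Some genes that these rules name are not reported here. The prior count of log2 ratios was 1, and shares of all genes were taken over those at 20 CPM or more on average. A limit of 0.5 on the log2 scale was used since there is 1 control library, and control 1 was not analysed here. Intervals are exact at 95%, and for a count of 0 the level of 3 counts is given too. Alternatives covered DESeq2 1.42.0 and its size factors, other scalings, filters, depths, limits and libraries left out. Python 3.11.15 with numpy 2.4.6, scipy 1.17.1 and matplotlib was used. The β-cell sums of mutant 1 and mutant 2 differed by more than sampling noise (chi-square per degree of freedom 4.55).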

Additional observations from a re-analysis of the deposited data

Results flagged for a closer look

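For 3 genes both mutant libraries lay above control 2 in 1 cell type and below it in another, and in each case the difference was not tested. Fos was above control 2 in β, α and non-endocrine cells and below it in δ cells of both mutant libraries (-0.89 and -0.11), a difference in mean log2 ratio of 1.62 for β minus δ cells, 1.10 for α minus δ cells and -1.43 for δ minus non-endocrine cells. In CPM of all UMIs the δ-cell ratios of Fos were -0.42 and 0.07. Ier2 was below control 2 in δ cells (-1.66 and -0.92), with differences of 2.37 for β minus δ, 1.31 for α minus δ and -1.48 for δ minus non-endocrine cells, although its α-cell ratios of 0.03 and 0.00 lay at control 2. Nr4a1 was above control 2 in β cells (0.15 and 0.51) and below it elsewhere, with differences of 1.14 for β minus α, 0.74 for β minus δ and 2.06 for β minus non-endocrine cells, although its α-cell ratios were -0.71 and 0.29 in cells thinned to 1000 UMIs. The δ-cell sums behind these values hold 68, 221 and 424 UMIs of Fos, 15, 48 and 163 of Ier2 and 4, 9 and 20 of Nr4a1.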

How the results depend on the processing

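Against β cells, the 10 genes gave 120 values over alternatives in α cells, of which 95 kept their direction and side of the threshold, 20 lost a call, 5 gained one and 0 changed sign. In δ cells, with 87 of 120 unchanged in direction and call, 21 changed sign, and in non-endocrine cells 12 of 130 did. The cause of these changes was not tested. With CPM of all UMIs, 3075 genes were called in α cells (1944 in the analysis as reported) and 2847 in δ cells (946), with 9 of the 10 genes higher in δ cells, and 89.5%, 95.9% and 85.2% of calls in α, δ and non-endocrine cells were higher, against 49.6%, 43.3% and 49.3%. With cells thinned to 1000 UMIs, which leaves 1277 genes tested, 534, 253 and 851 (3836) were called in α, δ and non-endocrine cells. Limits of 30% and 10% gave 403 in δ cells. With no filter, 0 of the 10 genes were called in δ cells, and 37.6% of all calls in α cells and 29.6% in δ cells were in the higher direction. The share higher in δ cells was 59.0% with DESeq2 and 57.9% with library sizes outside hormone genes. Leaving out 1 library at a time gave 3 to 8 of the 10 genes higher in α cells and 924 to 2738 genes called, 0 to 1 higher, 0 to 2 lower and 541 to 837 called in δ cells, and 5 to 8 higher and 3196 to 3523 called in non-endocrine cells.

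Without the replicate block, 0 of the 10 genes in α cells (742 genes in all), 0 in δ cells (471) and 5 in non-endocrine cells were called. No paired analysis was possible because mutant and control libraries share 1 replicate number with counts.

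Sign changes in δ cells were as follows. Fos was at 0.79 with CPM of all UMIs, 0.52 with limits of 30% and 10% and 0.16 without mutant 1. Junb was at 0.63 and 0.07 in the first and second of these. With no filter, Fosb was at -0.22, Jund at -0.06, Egr1 at -0.25 and Klf6 at -0.09, and without the block Egr1 was at -0.01. Btg2 was at 0.02 with DESeq2 size factors, 0.04 with DESeq2, 0.11 outside hormone genes, 0.95 with CPM of all UMIs, 0.10 in thinned cells and 0.01 and 0.03 without mutant 1 and mutant 2. With 1 library left out, Fos ran from -0.79 to 0.16, Fosb from -0.38 to 0.36, Egr1 from -0.31 to 0.43, Ier2 from -0.51 to 0.81 (each lowest without control 2) and Klf6 from -0.14 (without mutant 2) to 0.27. In non-endocrine cells, Fos was at -0.07 outside hormone genes, -0.21 with no filter, -0.05 with limits of 30% and 10%, -0.07 (without control 2) to 0.14 with 1 library left out (-0.03 without mutant 2) and -0.37 in endothelial cells. Fosb was at -0.07 outside hormone genes, -0.19 with no filter, -0.07 in thinned cells, -0.02 (without control 2) to 0.06 with 1 library left out and -0.42 in endothelial cells, where Egr1 was at -0.08.

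Against control 2, 0 of the mean ratios that passed the limit changed sign. In β cells CPM of all UMIs gave 5 genes higher, where 41.7% of all genes passed upward. With it, in cells of 3000 to 6000 UMIs, in thinned cells and outside hormone genes, 1 was lower. Of all genes, 12.1%, 16.5%, 20.9% and 22.4% passed downward in these settings. Outside hormone genes 3333 genes passed in either direction (2218). In α cells 0 were higher with CPM of all UMIs and outside hormone genes, where 20.3% and 18.0% of all genes passed upward. In these settings 5 and 6 were lower, with 4 for DESeq2 size factors and 1 for limits of 30% and 10%. Of all genes, 16.5%, 20.3%, 15.1% and 15.0% passed downward in the same order. In δ cells 3 were lower in thinned cells, where 18.6% of all genes passed downward, and a prior count of 5 left 1128 genes past the limit (2153). In non-endocrine cells 1 was lower with CPM of all UMIs and outside hormone genes, where 15.7% and 15.5% of all genes passed downward. Leaving out a mutant library, so that 1 ratio decides, gave 2 to 6 lower in α cells, 4057 to 4532 genes past the limit in δ cells, and 1 to 2 higher, 2 to 5 lower and 3958 to 4446 genes in non-endocrine cells. δ and non-endocrine sums rest on 26 to 67 cells, and the α sum of control 2 rests on 36. Counting error is widest in these sums.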

Other observations

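Cells outside the compared types held the same genes. In cells with at least 5% pancreatic polypeptide UMIs (55, 36 and 20 cells), Fos stood at 3072, 3020 and 1314 CPM of all UMIs, Egr1 at 4146, 4322 and 2079, Ier2 at 879, 1012 and 432, Jun at 812, 996 and 1059 and Klf6 at 241, 235 and 249. On this scale Fos, Egr1 and Ier2 were lower in control 2, and Jun and Klf6 were not. The median share of pancreatic polypeptide in these cells was 12.6%, 15.7% and 36.3%, and the part of this in the values was not tested. In cells assigned to no type (306, 161 and 107 cells), Fos stood at 2946, 2733 and 1094 and Klf6 at 54.1, 85.6 and 261. Their median mitochondrial share was 0.926%, 1.06% and 5.80%, whose part in these values was not tested. No test was made on these cells.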
